A study of Mus musculus with 30 samples.

Results

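The transcriptomes of bone marrow-derived macrophages (BMDMs) from the Mertk-/-V2 and Mertk-/-V3 mouse lines were compared, with 3 libraries of each line, 6 of the 30 libraries in the series. The libraries were chosen by genotype and tissue as their labels give them. The labels name the animals C57BL/6J throughout. The methods of the study give both lines a genome mixed from C57BL/6J and C57BL/6NJ, in different proportions, and the V2 and V3 alleles cannot be told apart here from the other sequence that separates the lines. Mertk-/-V2 mice carry a germline deletion of exon 18 made by crossing a floxed allele with tamoxifen-inducible Rosa26-ERT2-Cre, after which Cre was bred out. Mertk-/-V3 mice carry a deletion of exons 3 and 4 made with CRISPR/Cas9 in C57BL/6NJ eggs. Both alleles are homozygous and present in every cell, and each line is a single line, so that line and allele cannot be separated. The same table holds 3 BMDM libraries of B6 WT mice, which carry no Mertk deletion, and 3 of Mertk-/-V1 mice, in which exon 17 was replaced by a neomycin cassette in 129P2 embryonic stem cells. Bone marrow of age-matched adult mice was cultured for 7 days in medium conditioned by L929 cells, with no further stimulus named in the labels. The methods of the study name no batch of culture, harvest or library preparation. Any such batch that follows the lines cannot be told apart from them. The same pair of lines was also sequenced from the retinal pigment epithelium (RPE) at P25, in 3 libraries each.

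MERTK is a receptor tyrosine kinase of the TAM family, which also holds TYRO3 and AXL. Its ligands GAS6 and Protein S bridge it to phosphatidylserine on dying cells, so that macrophages that carry it can bind and engulf them, and its signal also restrains inflammatory gene expression. Macrophages differentiated from bone marrow express it at high levels.

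The deleted exons are printed to show that the 2 alleles interrupt the same message at opposite ends. In the reference transcript (GENCODE, GRCm38, plus strand) exon 3 is at chr2:128736563-128736663, exon 4 at chr2:128738196-128738369 and exon 18 at chr2:128794442-128794578, all coding sequence. Capitals in the last 2 sequences mark the first stop codon met in frame when the exons on either side of each deletion are joined, in exon 5 (chr2:128750100-128750186) for V3 and in the first 30 bases of exon 19 (chr2:128801154-128801183) for V2.
Exon 3, deleted in V3: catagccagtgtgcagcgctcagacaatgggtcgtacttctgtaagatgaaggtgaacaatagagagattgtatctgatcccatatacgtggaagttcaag
Exon 4, deleted in V3: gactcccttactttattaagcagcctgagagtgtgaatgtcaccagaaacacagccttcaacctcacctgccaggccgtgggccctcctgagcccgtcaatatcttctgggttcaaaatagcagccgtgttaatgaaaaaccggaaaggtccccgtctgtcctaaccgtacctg
Exon 18, deleted in V2: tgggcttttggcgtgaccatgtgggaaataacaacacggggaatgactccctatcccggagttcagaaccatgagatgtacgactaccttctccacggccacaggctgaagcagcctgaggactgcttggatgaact
Exon 5, read after the V3 deletion: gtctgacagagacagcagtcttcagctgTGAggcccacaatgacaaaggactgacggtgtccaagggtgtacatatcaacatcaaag
Exon 19, read after the V2 deletion: gtaTGAcatcatgtactcttgctggagtgc

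The V3 deletion removes 275 bases and the V2 deletion 137, and each leaves a remainder of 2 when divided by 3. In the joined V3 sequence the stop is codon 166, in exon 5 of 19. In the joined V2 sequence it is codon 780, which begins at base 4 of the last exon, against codon 995 in the reference. These are readings of the reference sequence, and the transcripts made from the 2 alleles were not assembled.

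Depth was 16629659 to 20979716 reads per V2 library and 18853659 to 25653814 per V3 library. Levels are given as normalised read counts, which are reads per gene divided by 1 size factor per library. V2 replicate 3 stood apart from the other libraries, with the lowest quality weight of the 12 BMDM libraries (0.342, against 0.548 to 2.19 in the others), and where a named DEG or list count was lost without it, this is given beside the result. Macrophage markers were high in both lines. Of 15 macrophage markers 14 were tested, and Mertk was the only one that passed the test between the lines. Csf1r, the receptor for macrophage colony-stimulating factor, averaged 30773 in V2 and 28239 in V3, and Lyz2, which encodes lysozyme, 158470 and 157330. In 10 lists of markers of other cell types, 1 gene passed the test, Mmp9 of the osteoclast list. In the other 9 limma called 0, but in most of these lists few genes were high enough to be tested. Tested were 10 neutrophil, 8 monocyte, 3 dendritic cell, 2 megakaryocyte and 2 stromal markers, and 1 each of B and erythroid cells. Of the T and NK list and of the mast cell and basophil list 0 were tested, so no call was possible there. An unadjusted p under 0.05 was met by 1 monocyte and 1 stromal marker in these 9 lists, and by 18.9% of all genes tested. In the osteoclast list it was met by 5 of the 7 markers tested. The markers of T and NK cells summed to 12.1 to 15.1 in V2 and 14.5 to 23.5 in V3, those of mast cells and basophils to 14.2 to 19.4 and 11.7 to 16.4, and those of neutrophils and their precursors to 1292 to 1493 and 1292 to 1491. The neutrophil gene Ly6g and the haemoglobin genes Hbb-bs, Hbb-bt and Hba-a2 were at 0 in both lines. Of the 8 monocyte markers none passed the test with limma, 1 had an unadjusted p under 0.05, and edgeR called 0 and DESeq2 called 1. Their sum was nevertheless 12372 to 13291 in V2 and 8949 to 11771 in V3, mostly from F13a1 (11976 and 9669, adjusted p = 0.0957), and its part in the results was not tested. In bulk RNA, fewer cells of a type and less RNA per cell cannot be told apart.

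Across the 2 lines, 33 genes were differentially expressed in BMDMs. Genes were called differentially expressed (DEGs) where the adjusted p was under 0.05 and the 2 lines differed by at least 2.38-fold. They were 0.246% of the 13420 genes tested with limma, 18 higher in V2 (0.134%) and 15 lower (0.112%). Mertk itself had the lowest adjusted p. Among the DEGs were the activator protein 1 (AP-1) subunits Fos and Fosb, the MAP kinase phosphatase Dusp1 and the gelatinase Mmp9, all lower in V2, and the bone morphogenetic protein receptor Bmpr1a and the myeloid receptor Trem1, both higher in V2.

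**Figure D1:**
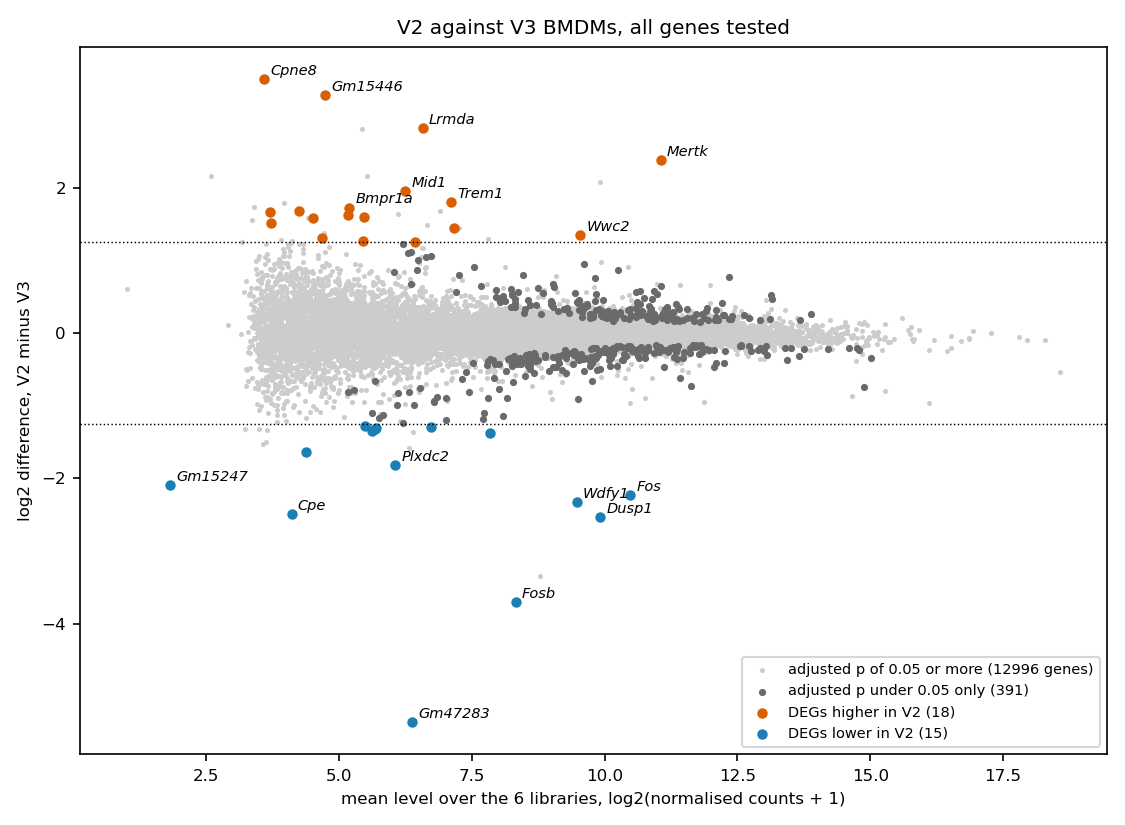
The log2 difference of every gene tested (vertical, V2 minus V3) is plotted against its mean level over the 6 libraries (horizontal, log2 of normalised counts plus 1). Dotted lines mark the 2.38-fold threshold on either side of 0. The 18 DEGs higher in V2 and the 15 lower in V2 are coloured, and the 391 dark grey genes passed the adjusted p alone.

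At the adjusted p alone, 424 genes separated the lines (3.16% of those tested), 190 higher (1.42%) and 234 lower (1.74%) in V2. Most of these differences were small, with 314 of the 424 under 0.5 on the log2 scale. The count of 424 fell to 155, 149 and 139 when V3 replicate 1, 2 or 3 was left out, and the count of 33 DEGs to 20 without V3 replicate 3. In each of the 33 DEGs the 3 V2 libraries did not overlap the 3 V3 libraries, which was also true of 22.2% of all genes tested. Of the 33 DEGs, 17 passed both thresholds whichever of the 6 libraries was left out, and 20 did without V2 replicate 3. The median difference over all genes was -0.0024, as the size factors set the libraries to a common scale.

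Mertk mRNA (chr2:128698956-128802894, plus strand, GRCm38 as are all positions given) was present at high levels in V2 and at low levels in V3. It measured 3589, 3532 and 3579 normalised counts in the V2 libraries and 651, 685 and 723 in the V3 libraries. B6 WT libraries held 2414, 2649 and 2881, and V1 libraries 847, 883 and 865. The groups did not overlap, and V2 lay above every B6 WT library while V3 lay below every V1 library. The mean was 3567 ± 30.7 (SD, n = 3) in V2 and 687 ± 36.1 (SD, n = 3) in V3, a 5.20-fold ratio, with a log2 difference of 2.38 (SE 0.06, adjusted p = 1.64e-11). Against the shared B6 WT libraries, the log2 difference was 0.43 for V2 (adjusted p = 0.00129) and -1.94 for V3 (adjusted p = 2.54e-10). The counts run over the whole gene, including the reads that the deleted exons can no longer give. They measure RNA and not protein. By flow cytometry the study reports MERTK protein ablated in BMDMs of both lines, and by immunoblot none was detectable in the tissues it examined. In its assay, BMDMs of both lines also took up fewer apoptotic thymocytes than those of B6 WT mice.

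The other TAM genes did not pass the test. Axl measured 166, 144 and 285 in V2 and 102, 92.7 and 156 in V3 (log2 difference 0.73, SE 0.24, adjusted p = 0.111), and the groups overlapped. Gas6, which encodes the ligand of all 3 receptors, was at 39925 ± 6205 in V2 and 42924 ± 1276 in V3 (SD, n = 3; adjusted p = 0.56). Pros1, which encodes Protein S, was at 1168 ± 105 and 1179 ± 70.2 (SD, n = 3; adjusted p = 0.934). Tyro3 was under the filter on low values, with a mean of 5.27 in V2 and 8.44 in V3. Mertk was thus the 1 gene called of the 4 of this pathway that could be tested, and DESeq2 called 2, Mertk and Axl.

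Several immediate early genes differed between the lines, and most of those that differed were lower in V2. These genes are transcribed within minutes of a stimulus, from promoters that need no new protein synthesis, and many encode transcription factors or the phosphatases and RNA-binding proteins that end the response. Of 40 genes on the list 36 were tested, and 10 passed the adjusted p, 8 lower and 2 higher in V2, which is 27.8% of those tested against 3.16% of all genes (1.42% higher and 1.74% lower). The median difference over the list was -0.12. The count was 8 to 12 when any 1 library was left out.

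Among them the AP-1 gene Fosb (chr7:19302696-19310051, minus strand) gave the widest gap, and Fos (chr12:85473890-85477273, plus strand) was also far lower in V2. Fosb measured 35.2, 32.3 and 59.8 in V2 and 940.5, 500.0 and 345 in V3, a log2 difference of -3.71 (SE 0.32, adjusted p = 1.99e-05). Fos measured 520.4, 476 and 483 in V2 and 3025, 2236 and 1829 in V3, a log2 difference of -2.23 (SE 0.15, adjusted p = 1.1e-06). In both genes every V2 library was far under every V3 library, and the V3 libraries spread more widely than the V2 libraries. Jun, which encodes their dimerisation partner, measured 3784, 3995 and 3555 in V2 and 5038, 5135 and 4903 in V3, a smaller difference of -0.41 (SE 0.05, adjusted p = 0.000369) with no overlap. Junb (-0.30, adjusted p = 0.0503) and Jund did not pass the test.

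Dusp1 (chr17:26505590-26562128, minus strand), the phosphatase that inactivates p38 and JNK, measured 313, 249 and 281 in V2 and 1965, 1650.2 and 1332 in V3. The lowest V3 library was thus several times the highest V2 library, and the log2 difference was -2.54 (SE 0.12, adjusted p = 2.27e-08). Its annotated span overlaps Ergic1 on the opposite strand, which differed by 0.10 (adjusted p = 0.294). Zfp36, which encodes tristetraprolin, a protein that speeds the decay of cytokine mRNAs, was at 2167 ± 142 in V2 and 3320.5 ± 347 in V3 (SD, n = 3; log2 difference -0.61, adjusted p = 0.00184). Btg2, an antiproliferative gene, was at 157 ± 23.9 and 290.0 ± 5.82 (-0.89, adjusted p = 0.000549). Klf2 (-0.45, adjusted p = 0.0181) and Ier5 (-0.33, adjusted p = 0.000217) were lower as well. Klf2 did not pass without V3 replicate 1 or 2. In Ier5, Btg2 and Zfp36 the 2 groups of libraries did not overlap.

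Id2 and Myc went the other way. Id2, an inhibitor of basic helix-loop-helix factors, was 2240.5, 2216 and 2569.5 in V2 and 1486, 1579.9 and 1639.8 in V3 (log2 difference 0.58, SE 0.06, adjusted p = 0.00012). Myc was 2327, 2620.2 and 2646 against 2088, 2087 and 2008 (0.29, SE 0.06, adjusted p = 0.0149). Neither gene overlapped between the lines, and Myc did not pass without V3 replicate 2 or 3. Egr1, another classical member of the list, measured 478, 697 and 621 in V2 and 683, 528 and 400.1 in V3, which overlapped (0.17, adjusted p = 0.762). The related Id1 and Id3 had 1 high library, V2 replicate 3, at 835 and 368, against 106 and 125 for Id1 and 4.85 and 9.08 for Id3 in the other V2 libraries, and neither passed the test.

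**Figure D2:**
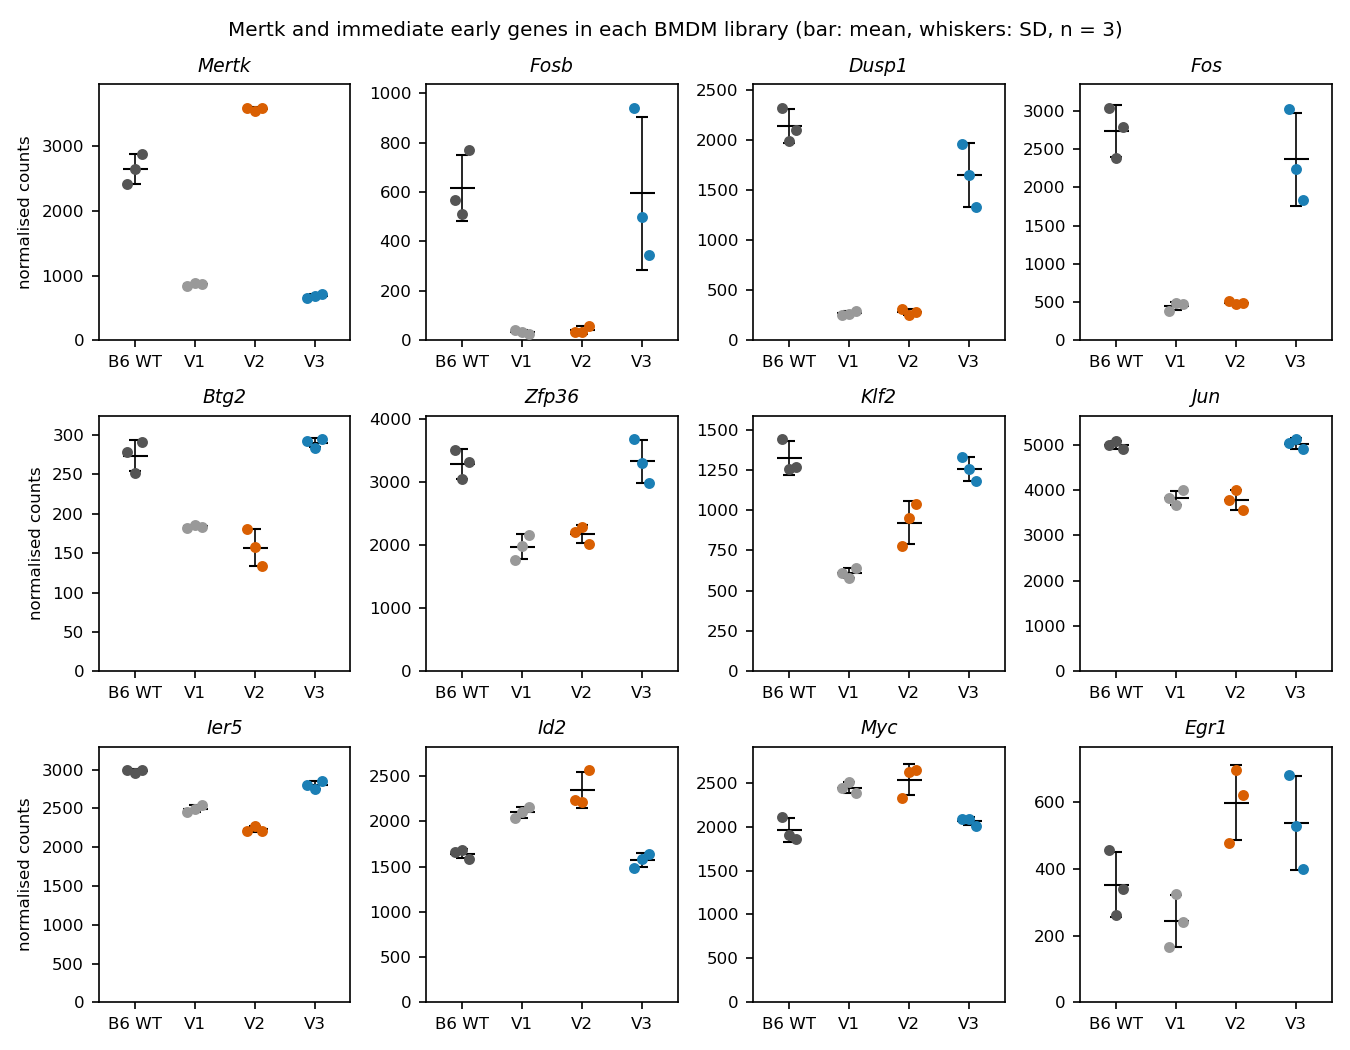
Normalised counts (vertical, from 0) of Mertk and 11 immediate early genes are shown for each BMDM library of B6 WT, V1, V2 and V3 mice, with the mean and SD of 3 libraries. For Fosb, Dusp1 and Fos the V2 libraries lie near the V1 libraries and the V3 libraries near the B6 WT libraries, whereas Egr1 overlaps between V2 and V3.

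Set beside the other genotypes, V3 lay near B6 WT in these genes and V2 near V1. Fosb was 567, 512 and 768 in B6 WT and 41.1, 35 and 25.9 in V1. Dusp1 was 2322, 1994 and 2099 in B6 WT and 257, 264 and 291 in V1. Fos was 3038, 2377 and 2793 in B6 WT and 389, 489.9 and 471 in V1. Against the same B6 WT libraries, V2 differed by -3.86 in Fosb, -2.93 in Dusp1 and -2.46 in Fos (adjusted p = 2.19e-05, 1.34e-08 and 8.88e-07), and V3 by -0.15, -0.39 and -0.24 (adjusted p = 0.86, 0.129 and 0.464). For Jun the same 2 differences were -0.41 and 0.01, for Zfp36 -0.60 and 0.01, and for Btg2 -0.81 and 0.09. The 2 differences from B6 WT share the B6 WT libraries and are given side by side. Whether the cultures of these genotypes were handled together is not stated, and its part in these values was not tested.

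The 250 bases upstream of Fosb, Dusp1 and Fos are printed because these 3 genes separate the lines most among immediate early genes (RefSeq, GRCm38.p6). Capitals mark TGACG, the core of the cyclic AMP response element that CREB and ATF proteins bind, on the printed strand, and its full palindrome TGACGTCA where it is present.
Fosb (chr7:19310046-19310295, minus strand): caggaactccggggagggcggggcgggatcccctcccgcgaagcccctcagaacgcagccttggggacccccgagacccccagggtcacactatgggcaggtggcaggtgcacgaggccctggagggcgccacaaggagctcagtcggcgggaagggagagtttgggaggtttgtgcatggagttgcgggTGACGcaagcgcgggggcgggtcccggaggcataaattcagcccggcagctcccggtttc
Dusp1 (chr17:26508473-26508722, minus strand): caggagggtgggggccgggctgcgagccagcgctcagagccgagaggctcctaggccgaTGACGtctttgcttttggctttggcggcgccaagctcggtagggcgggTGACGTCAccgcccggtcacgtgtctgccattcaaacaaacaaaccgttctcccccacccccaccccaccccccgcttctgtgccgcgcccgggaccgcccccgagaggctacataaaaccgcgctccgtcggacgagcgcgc
Fos (chr12:85473640-85473889, plus strand): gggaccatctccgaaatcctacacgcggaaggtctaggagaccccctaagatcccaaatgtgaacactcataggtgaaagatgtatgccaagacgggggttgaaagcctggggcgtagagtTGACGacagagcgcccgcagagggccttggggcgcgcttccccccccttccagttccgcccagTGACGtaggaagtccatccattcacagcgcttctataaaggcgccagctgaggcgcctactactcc

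Among the 8 immediate early genes lower in V2, all of which had a promoter in the table, 5 held TGACG on either strand in this window (Fosb, Dusp1, Fos, Btg2 and Klf2), and 17.8% of 32841 promoters did. The palindrome, which overlaps the shorter motif, was in 2 of the 8 (Dusp1 and Btg2) and in 1.55% of all promoters. The CArG box, to which serum response factor binds, was in 1 of the 8 (Zfp36) and in 1.47% of all, and TATAAA in 1 (Fos) and in 12.4%. Sequence farther upstream than this window was not searched, so a gene with no match here may hold the motif elsewhere. The other immediate early genes were not scanned as a group, so these shares cannot set the 8 apart from the rest of their list. A match is a run of letters and not a measured binding site.

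Ccl7 and Ccl2, chemokines that recruit monocytes, were higher in V2. Ccl7 was 6072, 6932 and 6666 in V2 and 3861, 3831 and 3795 in V3 (log2 difference 0.77, SE 0.06, adjusted p = 4.49e-06). Its neighbour on chromosome 11, Ccl2, was 10217, 10442 and 11182 in V2 and 7564, 7755 and 7732 in V3 (0.47, SE 0.05, adjusted p = 0.00012). In both genes all V2 libraries were above all V3 libraries, and the V1 libraries lay near V2 (Ccl7 5546 to 6411) and the B6 WT libraries near V3 (3909 to 4102). The eosinophil chemokine receptor Ccr3 was lower in V2 (65.5, 34.3 and 32.3 against 96.1, 102 and 102, log2 difference -1.24, adjusted p = 0.0188), just under the fold threshold, and did not pass without V2 replicate 3 or without any 1 of the V3 libraries. These were the 3 genes that passed among 21 chemokine and receptor genes tested (14.3%, against 3.16% of all genes), 2 higher and 1 lower, with a list median of 0.08.

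Of 30 efferocytosis and scavenger receptor genes tested, 3 passed (10%, against 3.16% of all genes). Cd300lf, a receptor for phosphatidylserine, was 849, 926 and 1332 in V2 and 495, 499 and 581 in V3 (0.95, SE 0.14, adjusted p = 0.00275), with no overlap. Cd300a, another member of that family, was higher by 0.26 (adjusted p = 0.0161). Thbs1, which encodes the bridging protein thrombospondin-1, was lower by -0.55 (329 ± 31.0 against 483 ± 58.7, SD, n = 3; adjusted p = 0.0291). Cd300a passed in 4 and Thbs1 in 3 of the 6 fits that left out a library, and without V2 replicate 3 the list had 5 genes past the test, 3 higher and 2 lower. The list's median was -0.0064.

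In the matrix list 3 of 21 genes passed (14.3%, against 3.16% of all genes). Mmp9 was 155, 155 and 78.8 in V2 and 321, 325 and 327 in V3 (log2 difference -1.38, SE 0.28, adjusted p = 0.0188). V2 replicate 3 was the lowest of the 6, and without it the difference was -1.06, under the fold threshold. Without any 1 of the V3 libraries its adjusted p did not pass. B6 WT libraries held 78.9, 75.0 and 148, so V3 was the line that differed from B6 WT (1.75, adjusted p = 0.0102, against 0.37, adjusted p = 0.493 for V2). Plaur, the urokinase receptor, was higher in V2 by 0.58 (adjusted p = 0.0324, lost without any 1 of the V3 libraries), and Thbs1 is described above. The osteoclast list, which shares Mmp9, had no other gene past the limma test among 7. An unadjusted p under 0.05 was met by 5 of the 7, against 18.9% of all genes. In 5 of the 7 the lines did not overlap, against 22.2% of all genes. DESeq2 called 2 and edgeR 1, and without V2 replicate 3 limma called 1 higher and 1 lower. Ctsk and Acp5 were at 19.8 and 25.7 in V2 and 9.05 and 13.4 in V3 (adjusted p = 0.0567 and 0.0769). Calcr was at 0 in all 6 libraries. The osteoclast genes summed to 2400 to 2817 in V2 and 2836 to 2953 in V3, and their part in the Mmp9 difference was not tested.

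Metabolic and stress lists showed small differences in both directions. In glycolysis 6 of 20 genes passed (30%, against 3.16% of all genes), 5 lower in V2 (Pfkl, Aldoa, Tpi1, Pgk1 and Ldha, from -0.26 to -0.21) and 1 higher (Pfkfb3, 0.30), with a median of -0.16. The 5 lower genes are enzymes of the pathway itself, and Pfkfb3 makes the allosteric activator of phosphofructokinase. The count of 6 became 1, 3, 0 and 1 without V2 replicate 1 and V3 replicates 1, 2 and 3. Without V2 replicate 3 it was 5, all lower in V2, and Pfkfb3 did not pass. Among 25 genes of the integrated stress response and ATF4 targets, 4 passed (16%). Slc7a5, a carrier of large neutral amino acids, was 2309.6, 2720.0 and 2744 in V2 and 1680.0, 1701 and 1583 in V3 (0.64, SE 0.07, adjusted p = 0.00038). Asns (0.34) and Mthfd2 (0.32) were higher in V2 as well, and Cebpg was lower (-0.36). Mthfd2 did not pass without V2 replicate 3 or any 1 of the V3 libraries. Of 13 inducible heat shock genes 2 (15.4%) were lower in V2, the chaperone Hspa8 (-0.35, adjusted p = 0.0012) and its partner Dnajb1 (-0.21, adjusted p = 0.0316, which passed in 2 of the 6 fits that left out a library).

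In other lists 1 or 2 members passed, in shares of 5% of the cell cycle list, 5.56% of the PPAR list, 6.25% of the interferon regulators, 7.14% of the LXR list and 12.5% of the feedback inhibitors, against 3.16% of all genes. Lpl, which encodes lipoprotein lipase, was 30763, 22449 and 15947 in V2 and 34829, 36834 and 40310.0 in V3 (log2 difference -0.74, adjusted p = 0.0432), 1 of 14 LXR and cholesterol efflux genes, and it passed in 1 of the 6 fits that left out a library, with -0.50 without V2 replicate 3. Plin2, the lipid droplet coat gene, was lower by -0.31 (adjusted p = 0.0113), 1 of 18 genes of PPAR targets and fatty acid oxidation. Of 40 cell cycle genes, the cyclin-dependent kinase inhibitor Cdkn1a was lower in V2 (-0.25, adjusted p = 0.00194) and the cyclin Ccnd2 higher (0.29, adjusted p = 0.0164, lost without any 1 of the V3 libraries). Irf1 (-0.35, adjusted p = 0.033) and Mavs (-0.25, adjusted p = 0.0302) were lower among 32 interferon regulators and nucleic acid sensors, and neither passed without V2 replicate 3. Among 16 feedback inhibitors of cytokine and NF-kappaB signalling, Tnip1 was higher (0.28, adjusted p = 0.0248) and Dusp1 lower, and without V2 replicate 3 Dusp1 alone passed.

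No gene passed in 12 other lists of pathways. Over all genes tested, 18.9% had an unadjusted p under 0.05, the share against which the unadjusted counts below are to be set. For antiviral interferon effectors limma called 0 of 45, with 1 at an unadjusted p under 0.05 and 0 by edgeR and DESeq2, and Ifitm3 averaged 7573 in V2 and 7538 in V3. For guanylate-binding proteins and immunity-related GTPases it called 0 of 12 (1 unadjusted, 0 by either other tool), for MHC class II 0 of 13 (0 unadjusted, 0 by either) and for complement 0 of 15 (0 unadjusted, 0 by either). For inflammatory cytokines it called 0 of 14 (3 unadjusted, 0 by either), with Tnf at 961 ± 82.6 and 940.5 ± 25.6 (SD, n = 3), and for sterol biosynthesis 0 of 23 (2 unadjusted, 0 by either). DESeq2 but not edgeR called 1 gene of MHC class I (limma 0 of 20, 3 unadjusted), 1 of alternative activation (0 of 17, 5 unadjusted), 1 of oxidative phosphorylation (0 of 24, 6 unadjusted), 2 of the lysosome (0 of 32, 7 unadjusted) and 2 of the circadian clock (0 of 17, 7 unadjusted). Among 20 NRF2 antioxidant genes limma called 0 (5 unadjusted), edgeR 1 and DESeq2 2. Without V2 replicate 3, Arg1 of the alternative activation list (lower in V2, adjusted p = 0.0442) and Hsd17b7 of the sterol list (higher, adjusted p = 0.0162) passed. Of the 23 sterol genes, however, 22 were below 0 and 1 above (median -0.13). Their sums overlapped, at 47165 to 68866 in the V2 libraries and 62974 to 67107 in the V3 libraries. In 1 of the 23 the lines did not overlap, against 22.2% of all genes. Oxidative phosphorylation had 21 of 24 genes below 0 and 3 above (median -0.09), and the lysosome 26 of 32 below and 6 above (median -0.07). In the circadian clock 13 genes were above 0 and 4 below (median 0.11). With 3 libraries a group these tests leave small differences undecided, and an exact permutation test of 3 against 3 cannot go below p = 0.1.

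**Figure D3:**
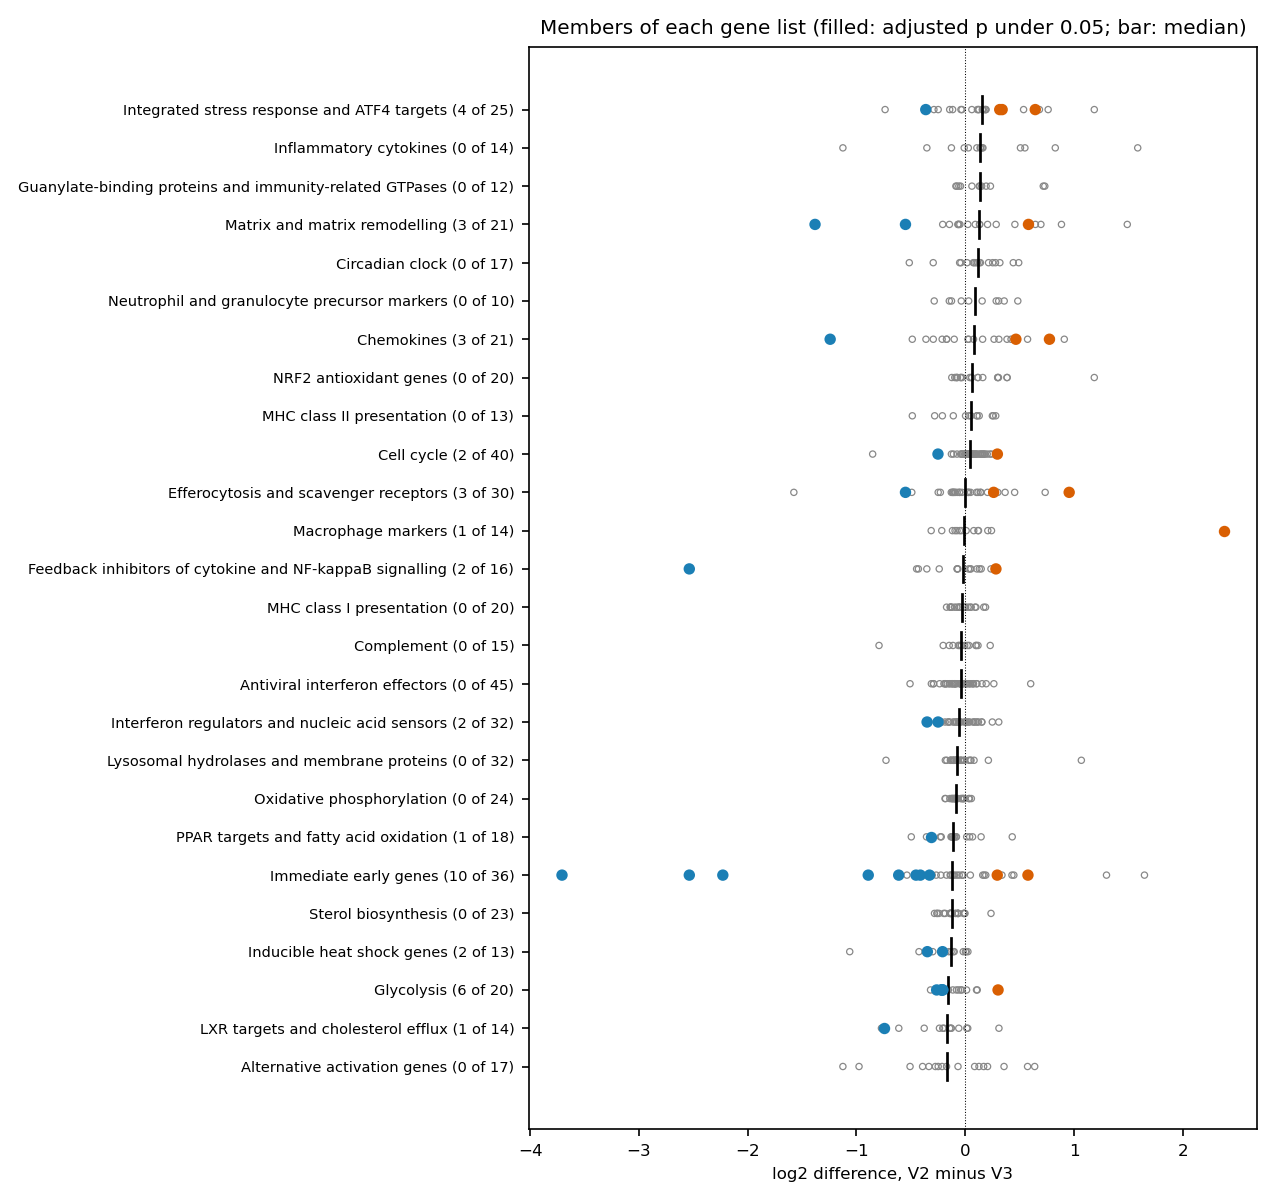
Each point is 1 tested gene of a list (vertical) at its log2 difference, V2 minus V3 (horizontal). Lists with 10 or more tested genes are shown in the order of their medians (black bars), with the number of genes past the adjusted p and the number tested in brackets, and filled points are those genes. The 3 points farthest to the left are Fosb, Dusp1 and Fos in the immediate early list, and Dusp1 appears again among the feedback inhibitors.

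The 33 DEGs were then placed against B6 WT, to see which line was the one that stood off. V2 minus B6 WT and V3 minus B6 WT use the same B6 WT libraries, so the 2 values are not independent of each other. Past both thresholds, 11 of the DEGs differed from B6 WT in V2 only, 8 in V3 only, 2 in both and 12 in neither. Over all genes tested, 0.253% passed against B6 WT in V2 and 0.156% in V3.

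Where V2 was the line that stood off, Cpne8 gave the largest rise. Cpne8, a calcium-dependent phospholipid-binding copine, was 24.3, 21.2 and 17.1 in V2 and 0, 1.07 and 2.41 in V3, with 4 reads in all over the 3 V3 libraries. The ratio of reads was 16.3, with an exact 95% interval of 6.03 to 61.7 that covers counting error only. B6 WT was at 1.64, 2.45 and 2.93, and V1 at 22.3, 21 and 21.4. Bmpr1a was 69.1, 47.4 and 48.4 in V2 and 14.2, 16 and 16.9 in V3 (log2 difference 1.73, SE 0.26, adjusted p = 0.00324), with B6 WT at 15.6 to 30.2 and V1 at 57 to 78.7. Arhgef18, a guanine nucleotide exchange factor, was 193, 204 and 220.4 in V2 and 104, 62.9 and 64.3 in V3 (1.44, SE 0.18, adjusted p = 0.000659), with B6 WT at 57.9 to 79.1 and V1 at 183 to 202. In these 3 genes, as in Fos, Fosb and Dusp1, V1 lay near V2 and B6 WT near V3. Plxdc2, a transmembrane protein with a plexin-like domain, fell just under the fold threshold against B6 WT in V2 (-1.20, adjusted p = 0.00264) and had the opposite sign (24.3, 28.2 and 33.2 in V2 and 90.7, 115 and 102 in V3, -1.81, SE 0.18, adjusted p = 0.000112), with V1 at 25 to 28.2 and B6 WT between the lines at 60.8 to 75.8. The transcripts 1700109H08Rik (1.68), Gm38253 (1.66), Gm38077 (1.31) and Gm16907 (1.26) were the other DEGs of this kind, and each overlaps a protein-coding gene in the annotation. Of the 6 fits that left out a library, they passed both thresholds in 6, 1, 4 and 3. Without V2 replicate 3, Gm38253 did not pass (1.49, adjusted p = 0.0931) and Gm16907 was under the fold threshold (adjusted p = 0.0193).

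Where V3 was the line that stood off, Wdfy1 gave the largest rise among the DEGs. Wdfy1 (chr1:79702262-79776143, minus strand), an endosomal adaptor with a FYVE domain, was 263, 199.7 and 245 in V2 and 1146, 1239.8 and 1150.5 in V3 (log2 difference -2.32, SE 0.10, adjusted p = 8.57e-09). V3 was nearly 5-fold above V2 (4.99), while B6 WT (174 to 200.3) and V1 (244 to 269.9) lay close to V2. Mrpl44, which overlaps it on the opposite strand, differed by -0.17 (adjusted p = 0.123). Wdfy1 was the only gene past the test in the list of 8 genes known to differ between the C57BL/6J and C57BL/6N substrains, of which 3 were tested. Of the other 2, Cyfip2 was at 3302 and 2732 (adjusted p = 0.14) and Ide at 2155 and 1784 (adjusted p = 0.0886), and Ide was lower than in B6 WT in both lines (-0.66 in V2, adjusted p = 0.000631, and -0.93 in V3, adjusted p = 3.52e-05). Crb1 and Entpd4 were at 0 in both lines, and Nnt (4.90 and 4.48), Nlrp12 (0.969 and 0.623) and Entpd4b (1.04 and 0) were under the filter.

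Lrmda (chr14:22019712-23056085, plus strand), which encodes a leucine-rich repeat protein of melanocyte differentiation, was 152, 168 and 176 in V2 and 27.3, 16 and 25.7 in V3 (log2 difference 2.82, SE 0.18, adjusted p = 7.88e-07). Wwc2 (chr8:47823959-47990924, minus strand), a WW and C2 domain protein of the Hippo pathway, was 1019, 1024 and 1150.3 in V2 and 426, 399.8 and 420.2 in V3 (1.35, SE 0.06, adjusted p = 8.57e-09). In both genes B6 WT (147 to 174 and 933 to 985) and V1 (131 to 147 and 1016 to 1053) lay near V2, so that V3 alone was low. For Wwc2 the difference of V3 from B6 WT was -1.20, just under the fold threshold. Gm15446, a zinc finger gene on chromosome 5, was 53.4, 42.4 and 40.8 in V2 and 14.2, 1.07 and 2.41 in V3 (3.28, SE 0.51, adjusted p = 0.00422), and V3 replicate 1 held most of the 17 V3 reads. Its transcript shares 97.4% identity over 1765 bases with Zfp932 on the same chromosome, so reads may be divided between them. Zfp932 itself was 107, 103 and 95.9 in V2 and 49.2, 53.3 and 29.7 in V3 (1.23, adjusted p = 0.00532), just under the fold threshold. Dnaaf3 (-1.32) and Efcab7 (-1.31), genes of cilia and calcium binding, were other DEGs with V3 above both V2 and B6 WT, and each passed both thresholds in 3 of the 6 fits that left out a library. Without V2 replicate 3 they were under the fold threshold (-1.23 and -1.09).

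**Figure D4:**
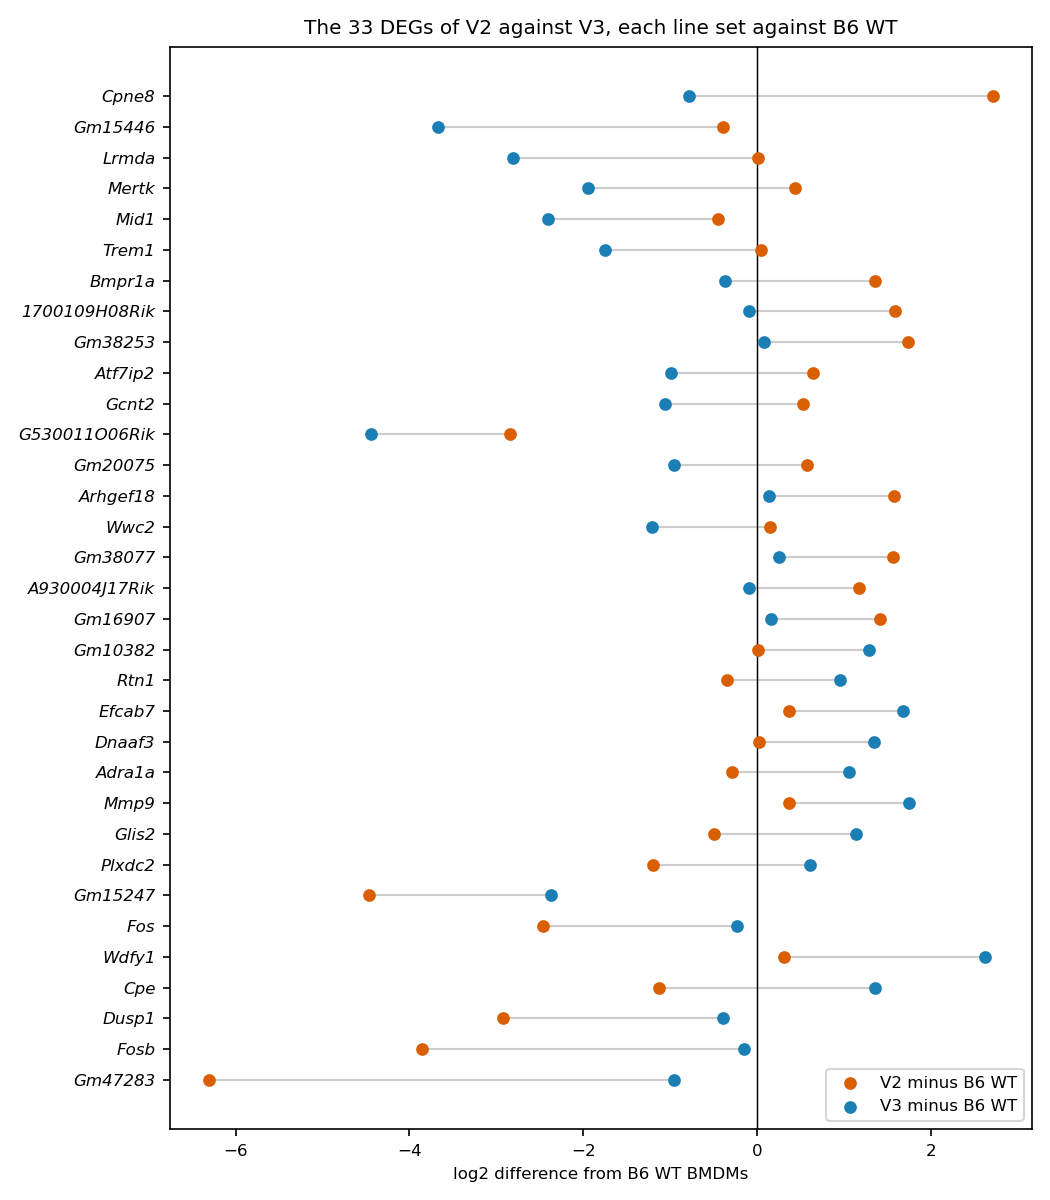
For each of the 33 DEGs (vertical, in the order of V2 minus V3) the log2 difference from B6 WT is plotted (horizontal) for V2 in orange and V3 in blue, joined by a line. Fosb, Dusp1 and Fos have V3 near 0 and V2 far below it, Wdfy1, Lrmda and Mertk have V2 within 0.43 of 0 and V3 far from it, and Gm15247 and G530011O06Rik lie below 0 in both lines.

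A cluster of DEGs lay at the end of the X chromosome, at the boundary of the region it shares with Y. Mid1, a microtubule-associated ubiquitin ligase that spans this boundary (chrX:169685199-170005736), was 132, 113 and 111 in V2 and 22.9, 26.7 and 42.6 in V3 (log2 difference 1.96, SE 0.19, adjusted p = 5.72e-05), against 153 to 175 in B6 WT. G530011O06Rik, a transcript on the opposite strand within it, was 34.0, 33.3 and 31.3 in V2 and 7.65, 9.59 and 14.5 in V3 (1.59, adjusted p = 0.0048), and both lines were far below B6 WT (174 to 330.2). Gm15247, an antisense transcript also within Mid1, held 1 read over the 3 V2 libraries and 15 over the 3 V3 libraries, a ratio of 13.6 with an exact 95% interval of 2.09 to 572, against 24.5 to 28.3 normalised counts in B6 WT. The strand setting of the read counter is not given in the sources used here, so that reads of Mid1 and of the transcripts on its other strand may not be separated. Gm47283, placed on Y at chrY:90784738-90816464, was 1.21, 3.03 and 3.80 in V2 and 142, 75.7 and 265 in V3 (-5.35, SE 0.38, adjusted p = 3.26e-06), with B6 WT at 202 to 370.2. It is identical over 529 bases to Gm21887 at the end of X, which was 58.2, 26.2 and 49.4 in V2 and 24, 95.9 and 16.1 in V3 and did not pass the test (0.32, adjusted p = 0.867). Thus Mid1 and G530011O06Rik were higher in V2 while Gm47283 and Gm15247 were lower. The Y-linked genes Ddx3y, Eif2s3y and Kdm5d were at 0 in both lines and Uty was at 0.741 and 0.268, while Xist was at 4988 ± 1009 in V2 and 3132 ± 452 in V3 (SD, n = 3; log2 difference 0.66, adjusted p = 0.0706). By these genes the 6 libraries came from female mice, and none of the Y-linked genes accompanied Gm47283. As Gm47283 shares sequence with the end of X, its level does not mark a Y chromosome.

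In the remaining DEGs neither line passed both thresholds against B6 WT. Cpe, carboxypeptidase E, was 6.07, 4.03 and 2.85 in V2 and 27.3, 32.0 and 24.9 in V3 (log2 difference -2.49, SE 0.40, adjusted p = 0.00531), with B6 WT at 6.52 to 14.0. The transcription factor Glis2 (-1.64), the adrenergic receptor Adra1a (-1.34), the reticulon Rtn1 (-1.29) and Gm10382 (-1.27) were lower in V2 as well, each low in every library. Cpe passed both thresholds in all 6 fits that left out a library, Glis2 in 3, Adra1a and Rtn1 in 2 and Gm10382 in 0. Without V2 replicate 3, Glis2 (-1.36, adjusted p = 0.0603) and Gm10382 (-1.30, adjusted p = 0.0791) did not pass and Rtn1 (-0.92) was under the fold threshold. Trem1, a receptor that amplifies inflammatory signals, was 114, 105 and 452 in V2 and 52.4, 42.6 and 54.6 in V3 (1.80, SE 0.44, adjusted p = 0.0404). V2 replicate 3 carried much of this, and without it the difference was 1.12, under the fold threshold. Gcnt2 (44.9, 41.4 and 116 in V2, 15.3 to 22.4 in V3) and Atf7ip2 (43.7, 37.3 and 79.8 in V2, 9.83 to 21.7 in V3) were also highest in that library, and neither passed without it (adjusted p = 0.0843 and 0.0695). Gm20075 (1.52) and A930004J17Rik (1.27) completed the group, and without V2 replicate 3 neither passed (1.31, adjusted p = 0.106, and 1.21, adjusted p = 0.0537). Gm20075 is 99.7% identical over 2110 bases to Btf3l4, and A930004J17Rik lies within Srsf4 on the same strand.

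The DEGs were spread over 16 chromosomes, with 1 to 3 on each. Chromosome 2, which carries Mertk, held 3 (Mertk, Plxdc2 and Mmp9) among 1038 genes tested. At the adjusted p alone 3.08% of chromosome 2 genes passed, near the 3.16% of all genes. The highest share on an autosome was 4.26% on chromosome 6, and the lowest 1.52% on chromosome 3.

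The same pair of lines was set against each other in RPE. There 10 genes passed both thresholds (0.0531% of 18832), or 6, 5 and 6 without V2 replicate 1, V2 replicate 3 and V3 replicate 3. At the adjusted p alone 14 passed (0.0743%), and 31 of the 33 BMDM DEGs could be tested. Of these, 5 were DEGs in RPE with the same sign. Mertk differed by 2.40 (SE 0.29, adjusted p = 0.00113), Lrmda by 2.03 (SE 0.33, adjusted p = 0.0243), Wdfy1 by -2.15 (SE 0.22, adjusted p = 0.00017), Gm15446 by 6.71 (SE 0.36, adjusted p = 3.15e-08) and Gm47283 by -6.82 (SE 0.56, adjusted p = 1.29e-05). Lrmda did not pass when any 1 of the 6 RPE libraries was left out (adjusted p = 0.0567 to 0.236) or with edgeR (adjusted p = 0.0574), and the other 4 passed in all of these. With only the 6 RPE libraries compared, Wdfy1 (adjusted p = 0.00975) and Gm15446 (adjusted p = 0.0092) passed, and Mertk (adjusted p = 0.199), Lrmda (adjusted p = 0.199) and Gm47283 (adjusted p = 0.0753) did not. Wdfy1, for instance, was 383.5, 459.97 and 351 in V2 RPE and 1776, 1637 and 1880.2 in V3 RPE. All of these but Gm47283 belong to the genes in which V3 stood off from B6 WT in BMDMs.

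Fosb, Dusp1 and Fos did not pass the test between the lines in RPE. Fosb was 92.7, 41.6 and 49.0 in V2 RPE and 120.5, 43.6 and 21.6 in V3 RPE (log2 difference 0.23, adjusted p = 0.906). Dusp1 was 700.2, 456 and 789 against 562, 283 and 439.6 (0.61, adjusted p = 0.699), and Fos 251, 182 and 237 against 554, 152 and 191 (-0.19, adjusted p = 0.91). The groups overlapped in these genes. The test of the difference between tissues, however, did not pass for Fosb (3.79, adjusted p = 0.0548), Dusp1 (3.16, adjusted p = 0.0663) or Fos (1.86, adjusted p = 0.195) with the quasi-likelihood test of edgeR. The difference did depend on the tissue for 8 DEGs, of 10 genes that passed this test among 19739 (0.0507%). The count of 10 became 5 to 6 without BMDM V2 replicate 2, V2 replicate 3 or V3 replicate 1 or without RPE V2 replicate 3 or V3 replicate 2, and 30 without RPE V3 replicate 1. In Bmpr1a, Wwc2, Mid1, Cpne8, Cpe and Plxdc2 the lines were separated in BMDMs and within 0.27 of each other in RPE. Most of these genes were low in BMDMs and high in RPE. In V2 and V3, Cpe averaged 4.32 and 28.1 in BMDMs against 15186 and 14600 in RPE, and Cpne8 20.8 and 1.16 against 1036 and 896. Bmpr1a averaged 55.0 and 15.7 against 4750 and 4382, and Plxdc2 28.6 and 103 against 1806 and 1505. The gap was smaller for Wwc2 (1064 and 415 against 3321 and 3050) and Mid1 (119 and 30.7 against 289 and 289).

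**Figure D5:**
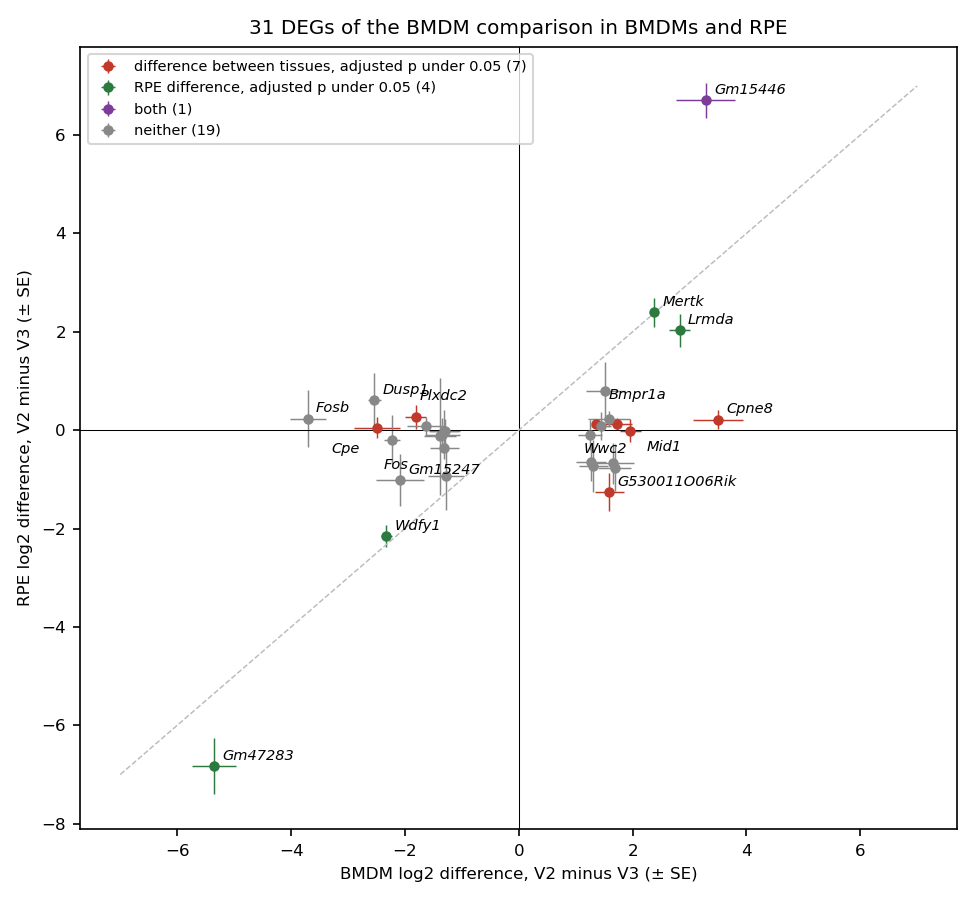
The log2 difference V2 minus V3 (± SE) of 31 DEGs is plotted in BMDMs (horizontal) against RPE (vertical), with a dashed line where the 2 are equal. Mertk, Lrmda and Wdfy1 lie near the dashed line and Cpne8, Bmpr1a, Wwc2, Mid1, Cpe and Plxdc2 near 0 in RPE.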

How the data were processed

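The authors isolated RNA from BMDMs and RPE and sequenced it in paired-end reads. Per the methods of the study, reads were trimmed (btrim), aligned to GRCm38 (STAR) and normalised (DESeq2). The counter, annotation and versions are not given in the sources used here. The deposited values are a signal per gene, the count of reads divided by 1 size factor per library. Multiplied by a size factor estimated here for each library, the values of the 55573 genes came out as whole reads (100% within 0.001 reads), and 55480 identifiers matched GENCODE release 21.

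V2 minus V3 was tested in R 4.3.3 with limma 3.58.1, fitting the 4 BMDM genotypes in 1 model (lmFit and eBayes, trend on) to log2 of each deposited value after adding a pseudocount of 1. Genes entered the test when their mean over the 12 BMDM libraries was 10 or higher. Differences are on that scale, which understates those of low genes. P-values were adjusted by Benjamini-Hochberg over all genes tested, and DEGs needed an adjusted p under 0.05 together with the 2.38-fold threshold. The labels call the libraries biological replicates, and p-values measure the spread between them. RPE was tested in the same way. The difference between tissues was an interaction in edgeR 4.0.16 (quasi-likelihood) on the recovered reads of 30 libraries. DESeq2 1.42.0 and edgeR served as alternatives. Similar transcripts were searched with BLAST 2.17.0 (at least 97% identity over 300 bases and 50% of a transcript).

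Named genes were the TAM genes, the 15 largest DEGs in each direction without overlap, all substrain and Y-linked genes and up to 6 called members of each list (the 2 highest where none was called). All other genes named (the remaining DEGs and immediate early genes, cell markers, overlapping or near-identical genes and those of the closing section) were added after their values were seen. The genes, the 38 lists and the comparison itself were chosen with earlier results of these data known, and 3 further lists were drawn up after the values were seen. The code was tested on simulated data.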

Additional observations from a re-analysis of the deposited data

Results flagged for a closer look

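In 8 named genes the difference between V2 and V3 was not the same in RPE as in BMDMs, by the interaction term of the quasi-likelihood test of edgeR over 30 libraries (adjusted over 19739 genes). Values are the log2 difference V2 minus V3 in RPE minus that in BMDMs, on the scale of the edgeR model, and the differences within each tissue are those of limma. Wwc2 gave -1.23 (adjusted p = 4.36e-05), from 1.35 in BMDMs and 0.12 in RPE. Cpne8 gave -3.68 (adjusted p = 0.000788), from 3.50 and 0.21. Bmpr1a gave -1.66 (adjusted p = 0.00807), from 1.73 and 0.13, and Plxdc2 gave 2.10 (adjusted p = 0.00807), from -1.81 and 0.27. These 4 genes passed whichever of the 12 V2 and V3 libraries was left out.

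Cpe gave 2.77 (adjusted p = 0.0123), from -2.49 and 0.05. It did not pass without BMDM V2 replicate 2 or 3 or RPE V2 replicate 1. Mid1 gave -1.92 (adjusted p = 0.0133), from 1.96 and -0.0075, and passed in 7 of the 12 fits that left out a library. G530011O06Rik gave -2.96 (adjusted p = 0.03), from 1.59 and -1.26, and passed in 4 of the 12. Gm15446 gave 4.27 (adjusted p = 0.0472), from 3.28 and 6.71, and passed in 3 of the 12, so that its difference was of the same sign but larger in RPE. With the 12 V2 and V3 libraries alone, the adjusted p was 0.0551 for Bmpr1a, 0.0698 for Mid1, 0.0675 for G530011O06Rik and 0.083 for Gm15446.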

How the results depend on the processing

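Of the 33 DEGs, 14 passed both thresholds under every alternative that gave them a value, and none changed sign. The count of DEGs was 16 with a minimum mean of 50, 16 with only the 6 libraries compared, 64 with the Y-linked genes (at or near 0 reads) as a covariate, 18 with DESeq2, which gave no adjusted p to 18 of the 33, and 20 to 39 with 1 library left out. Genes past the adjusted p numbered 61 with only the 6 libraries, 997 with the Y-linked covariate, 644 with DESeq2 and 139 to 570 with 1 library left out. Same-numbered V2 and V3 libraries did not deviate together (correlations -0.097, -0.0081 and -0.089), and they were not treated as pairs. With 3 libraries a line, these values cannot settle whether same-numbered cultures were handled together. With the replicate number as a block 30 genes were DEGs and 254 passed the adjusted p. In RPE the count of 10 became 40 with DESeq2, 5 with only the libraries compared, 74 with the replicate block and 5 to 10 with 1 library left out (chosen after the data were seen). The count of tissue differences became 25 with limma and 5 to 30 with 1 library left out. Immediate early genes past the adjusted p numbered 8 to 14 under all alternatives. Glycolysis genes numbered 0 with only the 6 libraries, 2 with quantile normalisation, 2 with the replicate block and 0 to 5 with 1 library left out. The cause of these shifts was not tested.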

Other observations

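Receptors of the paired and C-type lectin families, taken as a group after their values were seen and so given with no test of the group, were mostly higher in V2. Of 31 tested, 10 passed the adjusted p (32.3%, against 3.16% of all genes), all higher in V2 (1.42% of all genes), with a median of 0.30 against -0.0024 over all genes. Pilra was 779, 814 and 882 in V2 and 546, 591 and 546 in V3 (log2 difference 0.56, adjusted p = 0.000667), and Clec4e, which binds mycobacterial and damage-associated lipids, was 576, 522 and 642 against 409.6, 441 and 429 (0.44, adjusted p = 0.00841). In both genes V3 was below B6 WT (-0.66 and -0.63). Lilr4b, of the leukocyte immunoglobulin-like receptor family, was instead above B6 WT in V2 (0.63) and near it in V3 (0.11). Cd300e (1.05) and Lair1 (0.56), the collagen receptor, were higher in V2 as well. Without V2 replicate 3, which had the highest Trem1, Clec5a and Cd300lf, 9 of the group passed. Trem2 and Sirpa did not pass (-0.11 and -0.01).

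Genes of protein folding in the endoplasmic reticulum, also grouped after their values were seen, were mostly slightly lower in V2. Of 22 tested 8 passed (36.4%, against 3.16% of all genes), 7 lower and 1 higher in V2, with a median of -0.16. Hspa5, the chaperone BiP, was 26296, 25815 and 25784 in V2 and 29843, 31250.0 and 30835 in V3 (log2 difference -0.24, adjusted p = 0.011). Every V2 library was below every V3 library, and V1 (26247 to 27933) lay nearer to V2 and B6 WT (31152 to 32189) nearer to V3. Creld2 (-0.29), Manf (-0.26), the protein disulphide isomerases Pdia4 (-0.25) and Pdia6 (-0.20), the transcription factor Xbp1 (-0.23) and Sdf2l1 (-0.20) were lower as well, and Atf6, the stress sensor that acts upstream of several of these genes, was higher (0.26). Without V2 replicate 3 the count was 8 lower and 1 higher.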
